A study of Rattus norvegicus with 8 samples.

Results

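The genes described here are 10 enzymes of the pathways that make polyunsaturated fatty acids and build triglycerides, namely Fads1, Fads2, Elovl2, Elovl5, Gpam, Agpat2, Dgat1, Dgat2, Lpin1 and Lpin2. They were taken by name, as the array probe sets annotated to exactly 1 gene that is a member of this list. All 10 had such a probe set, 15 probe sets in all, of 14217 genes and 31042 probe sets measured. The study hybridised the liver RNA of 8 rats, males of the Sprague-Dawley strain at 7 weeks of age, to 1 Affymetrix expression array each. The 4 L. brevis rats were given Lactobacillus brevis119-2, a lactic acid bacterium from turnip, at 10 g of freeze-dried live cells per kg of feed. This feed was the chow CRF-1 with cholesterol added at 10 g per kg and cholic acid at 5 g per kg, and it was eaten over 2 weeks. The 4 control rats ate that same enriched feed without the bacterium, per the design text, although their source label names only CRF-1. The design text gives 11 rats per diet, so the arrays cover 4 of 11. Both diets held cholesterol and cholic acid by that text, so no liver here shows the genes on plain chow.

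Long polyunsaturated fatty acids such as arachidonic and docosahexaenoic acid are made in the liver from dietary linoleic and linolenic acid by alternating desaturation and elongation. Fads2 encodes the desaturase of the first step, Fads1 that of a later step, and Elovl5 and Elovl2 encode elongases that lengthen the chain in between and afterwards. Triglyceride is built on glycerol 3-phosphate: Gpam encodes a mitochondrial enzyme that adds the first acyl chain, Agpat2 one that adds the second, the lipins Lpin1 and Lpin2 remove the phosphate, and Dgat1 and Dgat2 add the last chain. In liver, SREBP-1 and the PPAR and LXR nuclear receptors are known to control several of these genes.

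The data show no member that differed between the diets beyond the adjusted threshold. Across all 31042 probe sets, 0.142% were called at a Benjamini-Hochberg adjusted p under 0.05 by limma, and 0 of the 11 member probe sets with a measurable difference were among them (smallest adjusted p = 0.386). Only 7 of the called probe sets, 0.0226% of all, varied by over 0.01 log2. When only varying probe sets were fitted, 0.0633% were called and again 0 of the 11 (smallest adjusted p = 0.159). At an unadjusted p under 0.05 stood 1 of these 11, a probe set of Elovl5 with the higher L. brevis mean, against 22.9% of the varying probe sets (9.44% higher and 13.5% lower) and 24.5% in the fit to varying ones. Leaving out L. brevis 3, control 1 or control 2 brought that count to 0, and leaving out control 4 brought it to 2. Of the 8 members with a measurable difference, 1 had a higher and 7 a lower L. brevis mean, with a median difference of -0.07 log2, where the 4159 genes with a varying probe set had a median of -0.03 and 44.7% on the higher side. The median absolute difference was 0.08 log2 for the 8 members and 0.19 log2 for those 4159 genes. These numbers describe the members and do not show that the diets act alike on them, since the intervals given below are wide.

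Not every member could be measured. Levels are given as the deposited log2 signals, and every difference is the L. brevis mean minus the control mean. Among the 31042 probe sets, 24719 had a range of 0.01 log2 or less over the 8 arrays, and such flat values show nothing about a difference. Gpam held 6.52 and 6.49 at its probe sets, Dgat1 held 8.79, and the other probe set of Lpin2 held 6.57, with a largest range of 1.6e-08 log2. Gpam and Dgat1 are therefore without a measured difference here. The other 8 members varied, which 29.3% of all 14217 genes did. Each of these is described by its brightest varying probe set, and 3 of them, Elovl5, Dgat2 and Lpin1, had a further varying probe set, called the other probe set below.

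Some properties of the arrays bear on all values. The signal of the GAPDH control probe set near the 5' end of the transcript minus that near its 3' end ran from -2.20 to -0.68 log2 in L. brevis arrays and from -2.93 to -1.83 in control arrays, and was highest in L. brevis 3 and 4. This difference falls as RNA or its copy gets shorter. L. brevis 2 carried skeletal muscle RNA signal: the 7 varying muscle markers of 8 measured averaged 9.63 log2 there, against 6.64 to 6.78 in the other 7 rats. Every varying muscle marker but Myh1 lay above all control rats there. Myh1 had 11.31 in L. brevis 2, against 10.4 to 11.32 in control rats, and Myh4 was flat on all arrays. The 3 varying erythroid markers of 4 measured averaged 10.04 in L. brevis 2, against 8.31 to 9.29 in the other 7. In L. brevis 3 the 3 varying adipose markers of 5 measured averaged 7.90, where the other L. brevis rats had 6.72 to 7.02 and the control rats 6.58 to 6.82, with Plin1 and Lep flat on all arrays. The part of these cell types in the values below was not tested. Hepatocyte markers averaged 13.58 to 13.64 in L. brevis and 13.59 to 13.64 in control rats, so the tissue label is borne out, while the 6 varying endothelial markers of 7 measured averaged 8.38 to 8.57 in L. brevis and 8.66 to 9.28 in control livers. Array medians lay between 6.61 and 6.63. L. brevis 1 departed most from its diet mean over varying probe sets, with an SD of 0.47 log2, against 0.28 to 0.4 in the other 7 rats. It also had the lowest limma array weight, which is smaller for less consistent arrays, at 0.32 against 0.755 to 3.36.

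The promoters of Fads1 and Elovl5 are shown because their signals had the highest correlation of any member pair over the 8 rats (below). Each gene was read there by its brightest varying probe set. The stretches lie upstream of the annotated gene, are 5′ to 3′ on the plus strand, and come from RefSeq's windows on GRCr8. The 250-base Fads1 window overlaps the annotated gene, so its stretch is shorter. They run over chr1:216252442-216252604 for Fads1 and chr8:87670914-87671163 for Elovl5. Capitals mark a CCAAT box (CCAAT, or ATTGG on the opposite strand), the site bound by NF-Y, and an E-box (CACGTG).
Fads1: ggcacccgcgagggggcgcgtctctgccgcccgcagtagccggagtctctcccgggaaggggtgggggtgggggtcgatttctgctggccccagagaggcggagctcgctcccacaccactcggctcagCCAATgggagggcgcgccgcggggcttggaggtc
Elovl5: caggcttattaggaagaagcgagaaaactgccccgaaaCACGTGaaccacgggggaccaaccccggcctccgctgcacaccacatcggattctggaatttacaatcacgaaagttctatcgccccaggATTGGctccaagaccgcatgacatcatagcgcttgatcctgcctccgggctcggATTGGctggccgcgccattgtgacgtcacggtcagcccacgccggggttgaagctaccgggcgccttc

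In the 250 bases before the start, Fads1 held 1 CCAAT box and Elovl5 held 2, with 1 E-box in Elovl5 only, counting both strands. Among all 33469 promoter windows of that length, 34.0% held a CCAAT box and 5.59% held this E-box, so a CCAAT box in both is a common feature. Of the members, 8 had a window in the table, Gpam and Lpin1 also held 1 CCAAT box each, and the windows of Fads2, Elovl2, Agpat2 and Lpin2 held none. The sterol regulatory element of the LDL receptor type (TCACNCCAC) was in no member window and in 0.974% of all windows. Fads2, Gpam, Agpat2 and Lpin1 lie on the minus strand. The direction in which minus-strand windows are written could not be checked. For these 4 genes, and for the minus-strand part of all windows, the bases read may therefore not be those before the start. All these matches are letters in a window, and say nothing about binding in these livers.

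The desaturase genes had overlapping values in the 2 diets. Fads2, the desaturase of the first step, had 8.73, 8.17, 8.59 and 8.95 log2 in L. brevis 1 to 4, against 8.50, 8.77, 9.08 and 8.41 in control 1 to 4. Its mean was 8.61 ± 0.33 in L. brevis rats and 8.69 ± 0.30 in control rats (SD, n = 4 each). The difference of -0.09 (SE 0.22, 95% interval -0.62 to 0.45, adjusted p = 1.0, limma) was smaller than the spread between rats of 1 diet. Fads1, the desaturase of the later step, had 9.60, 8.39, 9.31 and 9.72 in L. brevis rats, against 9.62, 8.91, 9.99 and 8.94 in control rats. L. brevis 2 was the lowest of all 8 rats for both genes, and control 3 the highest. The Fads1 difference was -0.11 (SE 0.40, 95% interval -1.07 to 0.85, adjusted p = 1.0, limma). Without L. brevis 2, the liver with muscle signal, the differences were 0.18 for Fads1 and 0.062 for Fads2, and without control 3 they were 0.10 and 0.044. The direction of both genes turned with either omission, and the part of the muscle signal in these values was not tested.

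Elovl5, the elongase that acts between the desaturases, gave different pictures at its probe sets. The brighter one had 11.94, 11.09, 11.77 and 11.72 in L. brevis rats, against 11.71, 11.27, 11.80 and 11.45 in control rats. The diets overlapped fully, L. brevis 2 was again the lowest, and the difference was 0.07 (SE 0.22, 95% interval -0.46 to 0.61, adjusted p = 1.0, limma). The other probe set had 6.83, 7.17, 7.82 and 8.47 in L. brevis rats, against 6.31, 6.70, 6.63 and 6.70 in control rats. All 4 L. brevis values lay above all 4 control values, with means of 7.57 ± 0.73 and 6.59 ± 0.18 (SD, n = 4 each). The difference was 0.99 log2 (SE 0.37, 95% interval 0.09 to 1.89, unadjusted p = 0.0361, adjusted p = 0.386, limma). The control values lay near the array medians and near the flat signals of lymphocyte markers, 6.45 to 6.53, so they were not shown to be above background and no fold is given. The exact permutation test over all 70 assignments gave its smallest possible two-sided p, 0.0286. Among all varying probe sets, 11.3% had diets without overlap, 4.21% with L. brevis on the higher and 7.09% with it on the lower side. The 2 Elovl5 probe sets did not move together over the 8 rats (r = 0.12, exact permutation p = 0.791, adjusted over 3 same-gene pairs 0.791; Spearman's rho = 0.02, exact p = 0.977).

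**Figure D1:**
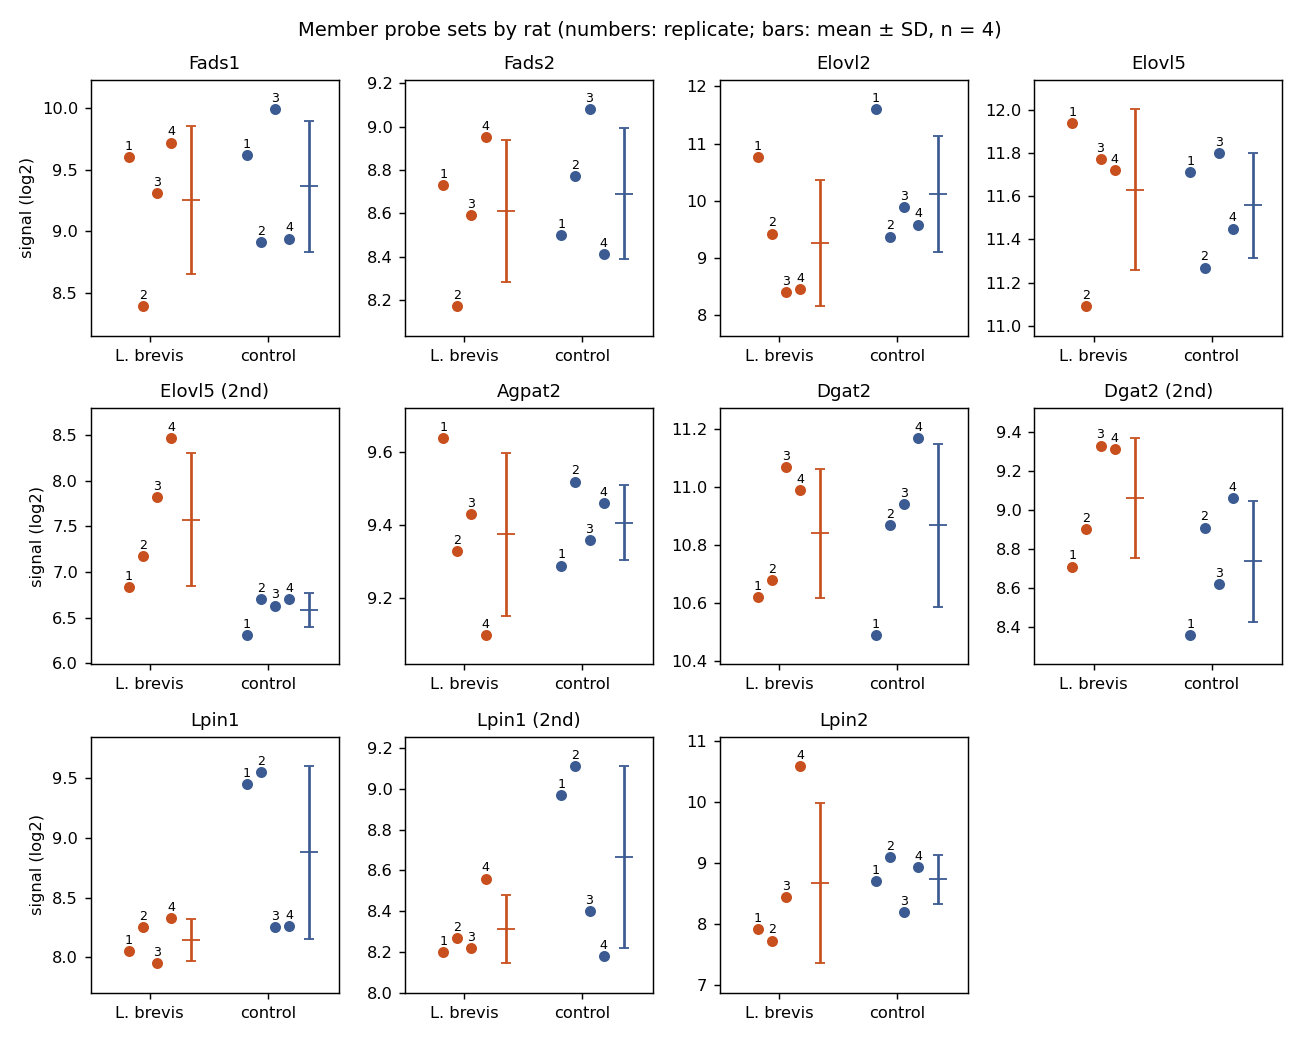
Log2 signal of the 11 member probe sets with a measurable difference, 1 point per rat, numbered by replicate, with mean and SD of the 4 rats per diet at the side of each group; "2nd" marks the other probe set of a gene, and each panel has its own vertical scale that does not start at 0. The diets overlap in 10 of the 11 panels, and only at the other Elovl5 probe set do the 4 L. brevis rats, 6.83 to 8.47, lie above the 4 control rats, 6.31 to 6.70.

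Elovl2, the elongase that makes the precursor of docosahexaenoic acid, had the widest range of any member. It had 10.76, 9.42, 8.39 and 8.45 log2 in L. brevis rats, against 11.60, 9.37, 9.89 and 9.58 in control rats. The 2 lowest values were those of L. brevis 3 and 4, while L. brevis 1 exceeded 3 of the 4 control rats. Its range over the 8 rats was 3.21 log2, or 9.24-fold, and only 2.18% of varying probe sets had a larger SD within diets. The difference was -0.85 (SE 0.74, 95% interval -2.66 to 0.96, adjusted p = 0.75, limma), inside the spread between rats. It was -1.35 without L. brevis 1 and -0.35 without control 1.

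The signals of Elovl2 and of 2 other member probe sets followed the GAPDH 5' minus 3' signal. Over the 8 rats Elovl2 gave r = -0.84 (exact permutation p = 0.00861, adjusted p = 0.0316) and rho = -0.88 (exact p = 0.00724, adjusted p = 0.0393), among 11 such relations computed. The other Elovl5 probe set gave r = 0.89 (exact permutation p = 0.00057, adjusted p = 0.00627) and rho = 0.90 (exact p = 0.00456, adjusted p = 0.0393). The other Dgat2 probe set gave r = 0.91 (exact permutation p = 0.00273, adjusted p = 0.015) and rho = 0.86 (exact p = 0.0107, adjusted p = 0.0393). Without L. brevis 4 and control 3, the arrays farthest from the median on that scale, r was -0.94, 0.92 and 0.89. An absolute r of 0.7 or more was found for 3 of the 11 member probe sets (27.3%) and for 43.5% of all varying probe sets. With the GAPDH signal as a covariate, the diet difference was 0.79 for Elovl2, opposite in direction, 0.25 for the other Elovl5 probe set and -0.18 for the other Dgat2 probe set, none of them called (adjusted p = 0.994, 1.0 and 1.0, limma). With the same covariate the difference was -1.20 for Lpin2, -0.88 for Lpin1, -0.34 for Dgat2, 0.35 for the brighter Elovl5 probe set and 0.32 for Fads1, also not called. The diets differ in that covariate as well, so diet and RNA length can be separated only in part with 8 arrays, and the part of RNA length in these values was not tested.

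**Figure D2:**
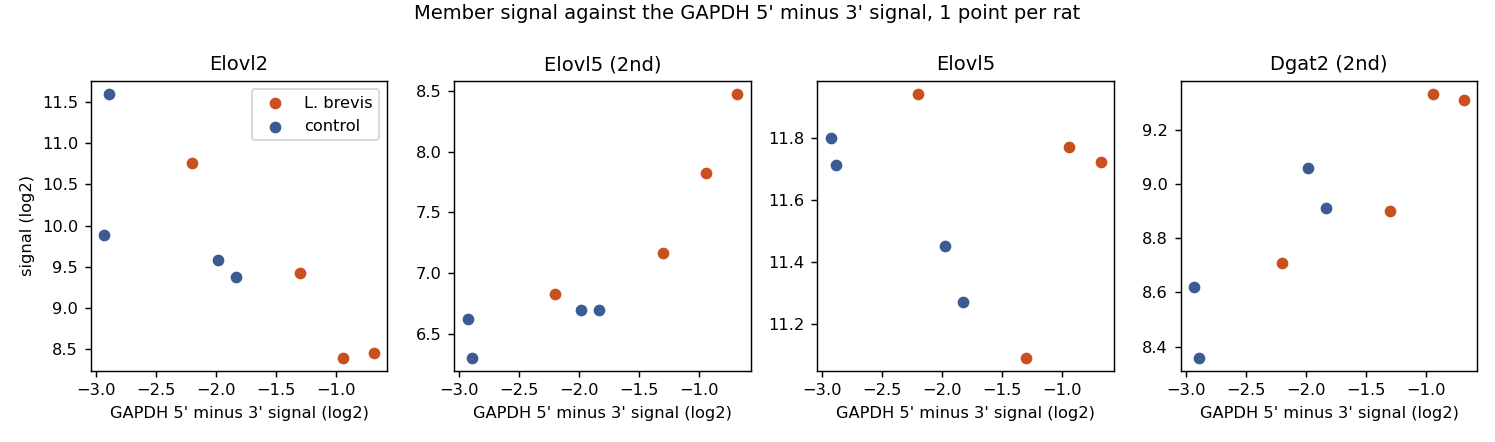
Log2 signal of Elovl2, the other Elovl5 probe set (2nd), the brighter Elovl5 probe set and the other Dgat2 probe set (2nd) against the log2 GAPDH 5' minus 3' signal, 1 point per rat, L. brevis in orange and control in blue. Elovl2 falls along the axis (r = -0.84) and the 2nd probe sets of Elovl5 (r = 0.89) and Dgat2 (r = 0.91) climb, while the brighter Elovl5 probe set (r = -0.25) shows no such order.

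In triglyceride assembly, Agpat2 was the steadiest member. It had 9.64, 9.33, 9.43 and 9.10 log2 in L. brevis rats, against 9.29, 9.52, 9.36 and 9.46 in control rats. Both the highest and the lowest value belonged to L. brevis rats, so that the control range lay inside theirs. The difference was -0.03 (SE 0.12, 95% interval -0.33 to 0.26, adjusted p = 1.0, limma), the narrowest interval of the members. Its range over the 8 rats was 0.53 log2, or 1.45-fold, and 62.6% of varying probe sets had a larger SD within diets.

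The lipins, which turn phosphatidic acid into diacylglycerol and also act as coregulators in the nucleus, each had 1 or 2 livers far from the rest. Lpin1 had 8.05, 8.25, 7.95 and 8.33 log2 in L. brevis rats, against 9.45, 9.55, 8.25 and 8.26 in control rats. Control 1 and 2 stood above the other 6 rats, while control 3 and 4 lay inside the L. brevis range. The other Lpin1 probe set had 8.20, 8.27, 8.22 and 8.56 in L. brevis rats, against 8.97, 9.11, 8.40 and 8.18 in control rats, and singled out the same 2 livers. The probe sets correlated at r = 0.96 (exact permutation p = 0.00146, adjusted over the 3 same-gene pairs 0.00438; rho = 0.71, exact p = 0.0576), and at 0.59 without control 1 and 2, so the relation rests largely on those rats. The difference was -0.73 at the brighter probe set (SE 0.37, 95% interval -1.62 to 0.16, adjusted p = 0.525) and -0.35 at the other (SE 0.23, 95% interval -0.92 to 0.22, adjusted p = 0.634, limma). It was -0.54 without control 1 and -0.51 without control 2 at the brighter probe set.

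Lpin2 had 7.92, 7.73, 8.44 and 10.59 log2 in L. brevis rats, against 8.70, 9.10, 8.19 and 8.94 in control rats. L. brevis 4 was the highest of all 8 rats and L. brevis 2 and 1 the lowest. The means were 8.67 ± 1.32 in L. brevis and 8.73 ± 0.39 in control rats (SD, n = 4 each), a difference of -0.06 (SE 0.68, 95% interval -1.71 to 1.58, adjusted p = 1.0, limma). Without L. brevis 4 the difference was -0.70 (adjusted p = 0.581, limma). Over all 8 rats the highest Lpin2 was thus in L. brevis 4 and the highest Lpin1 in control 2. Within each diet, however, the same liver was highest for both genes, namely L. brevis 4 and control 2. Lpin1 and Lpin2 gave r = 0.23 (exact permutation p = 0.578, adjusted p = 0.977) and rho = 0.67 (exact p = 0.0831, adjusted p = 0.644) over the 8 rats.

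Dgat2, which adds the last acyl chain in the endoplasmic reticulum and on lipid droplets, had 10.62, 10.68, 11.07 and 10.99 log2 in L. brevis rats, against 10.49, 10.87, 10.94 and 11.17 in control rats. Both ends of the range were control rats, and the difference was -0.02 (SE 0.18, 95% interval -0.46 to 0.41, adjusted p = 1.0, limma). The other Dgat2 probe set had 8.71, 8.90, 9.33 and 9.31 in L. brevis rats, against 8.36, 8.91, 8.62 and 9.06 in control rats, with L. brevis 3 and 4 at the top. Its difference was 0.33 (SE 0.22, 95% interval -0.20 to 0.85, adjusted p = 0.634, limma), and the mean over both was 0.15. Over the 8 rats they correlated at r = 0.75 (exact permutation p = 0.033, adjusted over the 3 same-gene pairs 0.0495; rho = 0.79, exact p = 0.0279, adjusted 0.0837), and at 0.45 without L. brevis 1 and control 1.

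**Figure D3:**
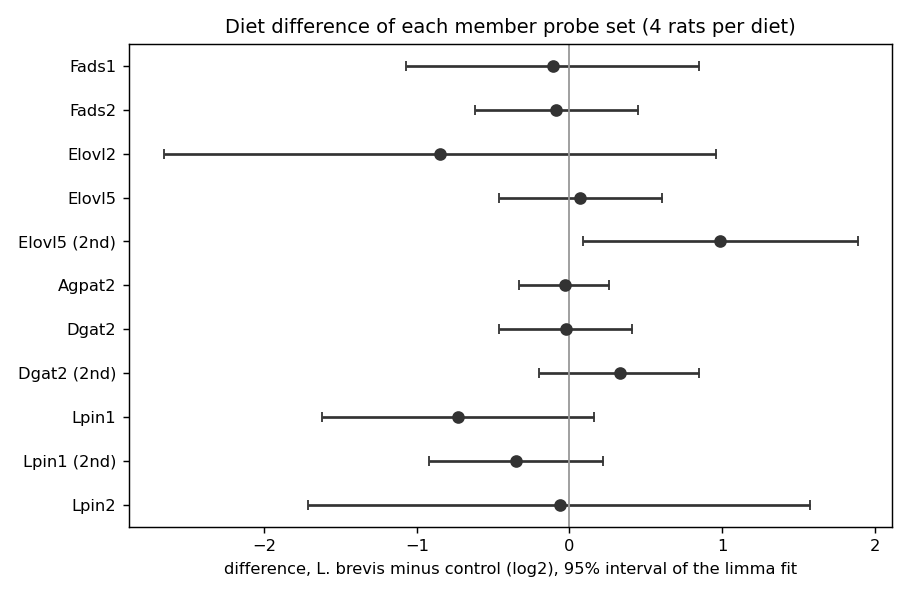
Difference in log2 signal, L. brevis minus control, of the 11 member probe sets with its 95% interval from the limma fit, 4 rats per diet; "2nd" marks the other probe set of a gene. The intervals of 10 probe sets cross 0, and that of the other Elovl5 probe set runs from 0.09 to 1.89 but misses the adjusted threshold (adjusted p = 0.386).

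Co-movement was examined over the 28 pairs of the 8 varying members, each by its brightest varying probe set. By Pearson's r, 0 pairs passed an adjusted p of 0.05 by the exact permutation test, with 3 at an unadjusted p under 0.05, and r ran from -0.77 to 0.90. An absolute r of 0.7 or more was found in 3 pairs (10.7%), against 19.3% of all 8646561 pairs of genes with a varying probe set. The median absolute r was 0.24 among members and 0.42 among all pairs. Both values were lower for the members than for all pairs, and 15 of the 28 correlations were positive.

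Of the 3 pairs at an unadjusted p under 0.05, 2 joined Fads1 to another gene of polyunsaturated fatty acid synthesis. Fads1 and Elovl5 gave r = 0.90 (exact permutation p = 0.00258, adjusted p = 0.0722) and rho = 0.74 (exact p = 0.0458), and r was 0.70 without L. brevis 2 and control 2. After quantile normalization this pair alone passed the adjusted threshold (r = 0.91, adjusted p = 0.0479, exact permutation). These values are for the brighter Elovl5 probe set. The other Elovl5 probe set was not among the pairs examined and did not move with the brighter one (r = 0.12), so the relation is not shown for it. Fads1 and Fads2 gave r = 0.80 (exact permutation p = 0.0155, adjusted p = 0.217) and rho = 0.69 (exact p = 0.0694). That r was 0.85 without L. brevis 2 and control 2, the rats farthest out in Fads1, and 0.40 without L. brevis 2 and control 3, those farthest out in Fads2. These 2 genes are neighbours on chromosome 1, with 1 annotated locus between them in RefSeq's GRCr8 annotation. Fads2 and Elovl5 gave r = 0.61 (exact permutation p = 0.11, adjusted p = 0.685; rho = 0.57, exact p = 0.151). Elovl2 showed no detectable relation to them over 8 rats, at r = 0.23 with Fads1 (exact p = 0.573), -0.13 with Fads2 (exact p = 0.757) and 0.22 with Elovl5 (exact p = 0.601). The third pair at an unadjusted p under 0.05 was Elovl2 with Dgat2 at its brighter probe set. It gave r = -0.77 (exact permutation p = 0.0252, adjusted p = 0.235) and rho = -0.64 (exact p = 0.0962). Without L. brevis 1 and control 1 its r was -0.24, so at this probe set the relation rests on those rats. The other Dgat2 probe set was not among the pairs examined. Its lowest value was in control 1 and its highest in L. brevis 3 and 4, where Elovl2 was highest and lowest, respectively. Elovl2 and that probe set both followed the GAPDH signal (r = -0.84 and 0.91), whose part was not tested.

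**Figure D4:**
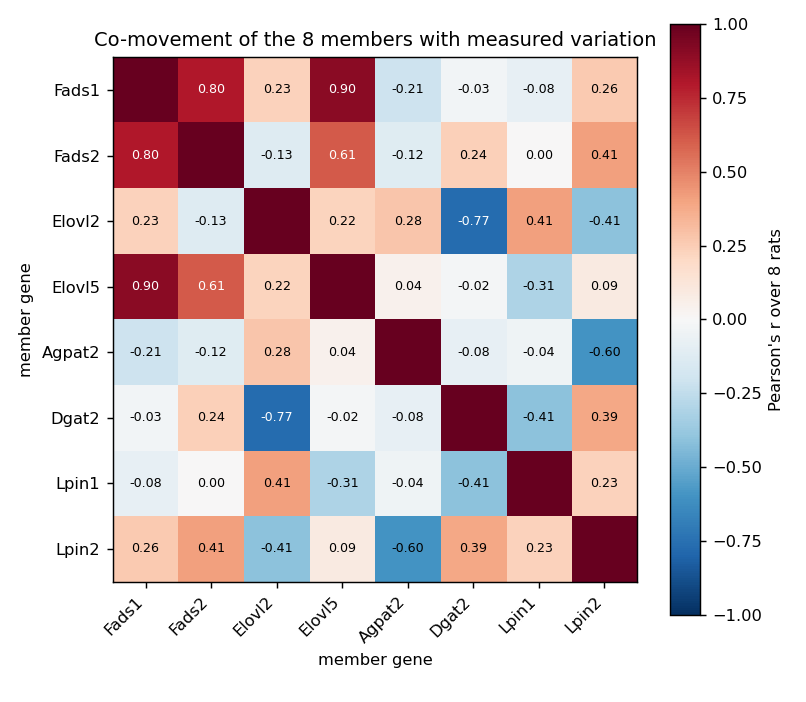
Pearson's r over the 8 rats for every pair of the 8 varying members, red for positive and blue for negative. Fads1 with Elovl5 (0.90) and with Fads2 (0.80) are the highest and Elovl2 with Dgat2 (-0.77) is the lowest, and no pair passed an adjusted p of 0.05.

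Among the 4158 other genes with a varying probe set, those most like Fads1 over the 8 rats were Ctsa (r = 0.917), Elovl5 itself (0.903) and Paqr7 (0.891), with Fads2 in place 22. Those most like Fads2 were Cblb (0.884), Zfp467 (0.867) and Desi2 (0.847), with Fads1 in place 9. Ctsa and Desi2 spanned only 0.08 and 0.05 log2 over the 8 rats, far less than Fads1 and Fads2. These are the highest of many correlations over 8 rats and are given as a description.

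The genes around these enzymes were read from 6 lists with 108 measured genes, of which 67 varied. By limma 0 of the 67 were called at an adjusted p under 0.05, both in the fit to all probe sets and in the fit to varying ones, and 8 (11.9%) had an unadjusted p under 0.05, 4 higher and 4 lower. Among all genes with a varying probe set 21.3% did so. On either side of 0 stood 33 higher and 34 lower genes. That count of 8 was 18 without L. brevis 1, 5 without control 3, and 4 without L. brevis 2, 3 or 4. Lists, like the members, were chosen with earlier results of these data known.

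Of the partners in chain elongation and acyl-CoA supply, 7 of 11 varying genes were higher and 4 lower (20 measured, median difference 0.07), with 2 higher at an unadjusted p under 0.05. Hacd3, a dehydratase of the elongation cycle, had 9.75, 9.81, 9.92 and 9.78 log2 in L. brevis rats, against 9.48, 9.61, 9.57 and 9.76 in control rats. L. brevis 1 lay just below control 4 and the other L. brevis rats above all controls, a difference of 0.21 (SE 0.07, adjusted p = 0.347, limma). Another varying Hacd3 probe set gave 0.51. Hsd17b4, of the peroxisomal oxidation that shortens very long chains in the last step to docosahexaenoic acid, stood at 12.00 to 12.14 in L. brevis livers, against 11.65 to 12.03 in control livers, a difference of 0.24 (SE 0.09, adjusted p = 0.357, limma). With the GAPDH covariate these were 0.099 for the Hacd3 probe set described and 0.11 for Hsd17b4.

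Of the other enzymes of glycerolipid assembly, 6 of 12 varying genes were higher and 6 lower (21 measured, median difference 0.02), with 1 lower at an unadjusted p under 0.05. That gene was Slc27a5, the fatty acid and bile acid acyl-CoA synthetase of liver, with 11.67 to 12.14 in L. brevis livers, against 12.36 to 12.86 in control livers. Its diets did not overlap, as in 11.3% of all varying probe sets (7.09% with L. brevis on the lower side). The difference was -0.65 (SE 0.16, adjusted p = 0.323, limma). In the phospholipid branch 4 of 11 varying genes were higher and 7 lower (17 measured, median difference -0.07). Pcyt2, which commits ethanolamine to phosphatidylethanolamine, was the only one at an unadjusted p under 0.05, with 9.32 to 10.06 in L. brevis rats, against 9.95 to 10.58 in control rats, a difference of -0.56 (SE 0.21, adjusted p = 0.389, limma), which was -0.13 with the GAPDH covariate.

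In triglyceride storage, lipolysis and secretion 6 of 16 varying genes were higher and 10 lower (21 measured, median difference -0.08), with none at an unadjusted p under 0.05 by limma. The largest differences there were those of G0s2, an inhibitor of adipose triglyceride lipase, and Aadac, a lipase of the endoplasmic reticulum. G0s2 had 12.19, 11.74, 11.00 and 9.27 log2 in L. brevis rats, against 10.14, 8.34, 12.09 and 10.66 in control rats, a difference of 0.74 (SE 0.99, adjusted p = 0.885, limma). It was 0.084 without control 2, 0.36 without L. brevis 1, 1.34 without control 3 or L. brevis 4, and 2.66 with the GAPDH covariate (SE 1.04, adjusted p = 0.805, limma). Its lowest L. brevis rat was L. brevis 4, the liver with the highest Lpin2. Aadac had 8.77 to 10.41 in L. brevis and 8.74 to 9.90 in control rats, a difference of 0.65 (SE 0.45), which was -0.41 with the GAPDH covariate.

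Of the transcription regulators 5 of 10 varying genes were higher and 5 lower (17 measured). Mlxipl, the carbohydrate response factor ChREBP, had 7.59 to 7.76 log2 in L. brevis livers, against 7.88 to 8.27 in control livers, without overlap, a difference of -0.35 (SE 0.09, adjusted p = 0.345, limma). Rxra, the partner of PPAR and LXR, had 6.97, 7.42, 7.46 and 7.72 in L. brevis rats, against 6.71, 6.88, 6.90 and 7.15 in control rats, a difference of 0.48 (SE 0.18, adjusted p = 0.379, limma). All but the highest of these Rxra control values lay near the array medians, 6.61 to 6.63, and were not shown to be above background. With the GAPDH covariate the differences were -0.19 for Mlxipl and 0.10 for Rxra. Among SREBP-1 target genes of lipogenesis 5 of 7 varying genes were higher and 2 lower (14 measured, median difference 0.14). Acaca, acetyl-CoA carboxylase, which makes malonyl-CoA for chain growth, had 8.03 to 8.33 in L. brevis and 8.34 to 8.69 in control livers, without overlap. Its difference was -0.34 (SE 0.09, adjusted p = 0.347, limma), which was -0.51 with the GAPDH covariate. Of all varying probe sets, 7.09% had L. brevis below control without overlap, as Mlxipl and Acaca did.

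Scd, whose enzyme puts the single double bond into oleic and palmitoleic acid, had 8.83, 12.22, 11.77 and 12.29 log2 in L. brevis rats, against 8.90, 8.21, 9.18 and 8.88 in control rats, a difference of 2.49 (SE 0.84, adjusted p = 0.352, limma), which was 1.31 with the GAPDH covariate. L. brevis 2, with a Scd signal of 12.22, was the rat with the lowest Fads1, Fads2 and brighter Elovl5 signals of all 8. L. brevis 1, with Scd inside the control range, had the highest brighter Elovl5 signal of all 8. L. brevis 4, in contrast, had both the highest Scd signal of all 8 and the highest Fads1 and Fads2 signals of the L. brevis rats, and control 2 had the lowest Scd and the lowest Fads1 and brighter Elovl5 signals of the control rats. The relation of Scd to these genes was not tested. Without L. brevis 1 the Scd difference was 3.3 and passed the threshold (adjusted p = 0.0142, limma), whereas no member did so in any of the 18 settings run (smallest adjusted p = 0.115). As these are whole liver samples, fewer cells of a type and less RNA per cell cannot be told apart in any of these values.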

How the data were processed

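Liver RNA of 8 rats, 4 per diet, was measured on Affymetrix 3' arrays. The deposited values are log2 signals, 1 per probe set and array, normalized by the authors; the summarisation and normalization methods are not given in the sources used here. Per the labels' protocols, RNA was extracted with Trizol, column-purified and labelled with biotin by in vitro transcription. Of 31099 probe sets, 57 Affymetrix controls were left out; 20826 of the rest had 1 gene symbol, 436 several and 9780 none, with symbols updated through gene identifiers. A gene stands for its brightest probe set among those varying by over 0.01 log2, or its brightest if none varied. The diet difference of each of the 31042 probe sets came from limma 3.58.1 under R 4.3.3 (lmFit, eBayes with intensity trend, two-sided, Benjamini-Hochberg, threshold 0.05), and tested on simulated data. Permutation tests are two-sided and exact, except those on deviations from diet means, which are approximate. Groups came from the sample titles. Named were all members, each list's genes at an unadjusted p under 0.05 (else the 2 largest differences), and the 3 genes most like Fads1 and Fads2. Members, lists and tests were chosen with earlier results of these data known. The number of arrays limits precision. Alternatives were other normalizations, feature filters, variance models, array weights, the GAPDH covariate, a replicate block and omission of each array. Between 2 arrays of a diet the SD of differences over varying probe sets was 0.401 to 0.817 log2, so none of the arrays duplicates another.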

Additional observations from a re-analysis of the deposited data

Results flagged for a closer look

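A rat far from the other 3 of its diet was found in 2 of 72 groups of 4 examined with Dixon's test, where chance gives about 1 in 20. For Scd, L. brevis 1 had 8.83 log2, against 11.77 to 12.29 in the other L. brevis rats. For the mean of the skeletal muscle markers, L. brevis 2 had 9.63 log2, against 6.69 to 6.72 in the other L. brevis rats. No probe set of the 10 enzymes had such a rat, although Lpin2 in L. brevis 4 (10.59) lay far above the other 3 L. brevis rats.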

How the results depend on the processing

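No member was called under any of the 18 settings run. Only the other Elovl5 probe set and both Lpin1 probe sets kept their direction in all of them, while the 8 other member probe sets changed it at least once; for all, the cause was not tested. With the GAPDH 5' minus 3' covariate the difference was 0.32 for Fads1, 0.79 for Elovl2, 0.069 for Agpat2, -0.18 for the other Dgat2 probe set and -0.41 for Aadac; the members at an unadjusted p under 0.05 numbered 0 and the list genes 2. With array weights Dgat2 stood at 0.087, the unadjusted counts were 2 and 19, and with quantile normalization Elovl5 stood at -0.027. The mean of both Dgat2 probe sets was 0.15. Leaving out 1 rat gave ranges of -0.26 to 0.18 for Fads1, -0.20 to 0.062 for Fads2, -0.032 to 0.25 for Elovl5, -0.12 to 0.056 for Agpat2, -0.15 to 0.075 for Dgat2 and -0.70 to 0.25 for Lpin2, with 0 to 2 member probe sets and 4 to 18 list genes at an unadjusted p under 0.05 and 0 to 1 list genes at an adjusted one (Scd, without L. brevis 1). Deviations of same-numbered rats correlated at 0.36, 0.20, 0.08 and 0.38, not all over 0.1, so the replicate numbers were not used as pairs, and whether they mark pairs is not known; a replicate block called 1 list gene, Acaca (adjusted p = 0.0182), and 0 members. Of the 28 member pairs, 1 passed the adjusted threshold under quantile normalization (Fads1 with Elovl5, r = 0.91, adjusted p = 0.0479, exact permutation). As deviations from diet means, Fads1 with Elovl5 gave r = 0.93 (adjusted p = 0.0458, permutation) and Elovl2 with Dgat2 r = -0.87 (adjusted p = 0.0497, permutation). Such deviations are tied to each other within a diet, yet were shuffled over all rats. The last 2 p-values are therefore not exact and cannot decide whether these pairs pass. Signal over background was not used here, and flat probe sets allow no statement.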
